A study of Mus musculus with 22 samples.

Results

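Messenger RNA of 10 genes of T lymphocytes and natural killer cells was followed in kidneys of young mice, old mice and old mice fed nicotinamide. The genes were chosen by symbol from the deposited count table: Cd3d, Cd3e, Cd3g and Trbc2 of the T cell receptor complex, the co-receptors Cd4 and Cd8a, the adhesion molecule Cd2, the kinase Lck, and Nkg7 and Gzma of cytotoxic cells. They are 10 of 55487 gene entries, and each symbol matched 1 mouse Ensembl identifier. The mice were wild-type males of the C57BL/6JRj strain, and RNA from a small piece of each kidney was read from the 3′ end of polyadenylated transcripts. Young mice (n = 6) were 4 months old and served as controls. Old mice (n = 8) were 21 months old and controls as well. The third group (n = 8) was also 21 months old and had nicotinamide, a form of vitamin B3, mixed into its food, at 1.6 g per kg of food or a daily 200 mg per kg of body weight, for 14 weeks. Each library stands for 1 animal according to the design, so the p-values measure the spread between animals.

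T cells recognise peptides through a receptor whose variable chains sit among the CD3 proteins. CD4 on helper cells or CD8 on cytotoxic cells binds the major histocompatibility complex and brings the kinase LCK to the receptor, where it phosphorylates the CD3 tails. Cytotoxic T cells and natural killer cells kill targets with perforin and granzymes carried in granules. In the kidney such cells are a small population of the interstitium, and T cells gather there in inflamed and ageing tissue.

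The 3 CD3 genes of the list are neighbours on chromosome 9, and the data show them moving together in 1 kidney, so their upstream sequences are shown with that of Lck. The stretches are the 250 bases before the start of each gene in RefSeq annotation (build GRCm38.p6), written 5′ to 3′ on the strand of the gene. Capitals mark matches, on either strand, to short core motifs of transcription factor families active in T cells. The motif AGGAAG stands for the ETS family, as does CGGAAG in a separate search. The motif TGTGGT stands for the RUNX family, CTTTGA for the TCF and LEF family, and AGATAA for the GATA family. None of these motifs overlaps another in the stretches below.
Cd3d, chr9:44981536-44981785, plus strand: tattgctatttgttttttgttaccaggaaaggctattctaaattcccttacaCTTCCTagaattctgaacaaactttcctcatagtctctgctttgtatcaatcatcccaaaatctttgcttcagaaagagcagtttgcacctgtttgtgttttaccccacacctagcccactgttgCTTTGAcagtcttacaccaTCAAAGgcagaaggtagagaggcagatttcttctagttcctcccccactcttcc
Cd3g, chr9:44980432-44980681, minus strand: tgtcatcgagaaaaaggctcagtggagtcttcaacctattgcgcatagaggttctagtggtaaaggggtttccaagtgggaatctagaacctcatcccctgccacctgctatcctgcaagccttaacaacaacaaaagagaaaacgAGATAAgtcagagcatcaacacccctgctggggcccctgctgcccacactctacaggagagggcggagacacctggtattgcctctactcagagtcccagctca
Cd3e, chr9:45009612-45009861, minus strand: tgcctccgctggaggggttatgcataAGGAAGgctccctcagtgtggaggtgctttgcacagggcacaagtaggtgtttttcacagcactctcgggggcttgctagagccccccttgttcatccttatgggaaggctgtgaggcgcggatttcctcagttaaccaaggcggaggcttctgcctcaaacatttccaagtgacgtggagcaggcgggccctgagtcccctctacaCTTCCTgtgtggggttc
Lck, chr4:129573642-129573891, minus strand: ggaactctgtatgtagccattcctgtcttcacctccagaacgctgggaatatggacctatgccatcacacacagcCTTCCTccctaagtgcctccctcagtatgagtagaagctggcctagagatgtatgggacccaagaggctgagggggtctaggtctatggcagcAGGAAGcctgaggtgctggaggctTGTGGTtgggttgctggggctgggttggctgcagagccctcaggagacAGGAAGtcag

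Cd3d carries an ETS match 198 to 193 bases before its start and 2 TCF and LEF matches, at 73 to 68 and 54 to 49 bases. Cd3g carries a GATA match 104 to 99 bases before its start. Cd3e carries ETS matches at 224 to 219 and at 17 to 12 bases. The Lck stretch, the farther upstream of 2 Lck starts in the table, carries 3 ETS matches and 1 RUNX match at 58 to 53 bases. RefSeq windows were at hand for 7 of the 10 genes, 8 windows with both Lck starts. AGGAAG stood in 5 of these 8 and in 29.5% of all 32851 windows of the same length, and TGTGGT stood in 3 of 8 and in 14.0% of all. CGGAAG stood in 0 of 8 and in 13.6% of all, CTTTGA in 1 of 8 and in 13.8% of all, and AGATAA in 1 of 8 and in 9.99% of all. Among 67 windows of other T and natural killer cell genes, 44.8% held AGGAAG and 34.3% held TGTGGT. These are matches of letters in windows, and no binding was measured.

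All 10 genes were of low abundance. The libraries of young kidneys held 3351065 to 7184997 gene counts, those of old kidneys 5443099 to 7519169, and those of nicotinamide-fed kidneys 5663649 to 8319865. Levels are given as counts per 1000000 counts of a library after TMM scaling (CPM). Of the gene by kidney values, 16 of 60 were 0 in young, 7 of 80 in old and 8 of 80 in nicotinamide-fed kidneys, and a count of 0 allows up to 3 counts, or 0.363 to 0.953 CPM depending on the library. A minimum count left 7 of the 10 genes in the test, among 14683 tested genes, and Cd3g, Cd8a and Gzma fell below it. Whether a kidney with less of these transcripts held fewer of the cells or less RNA per cell cannot be told apart in bulk tissue.

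One kidney stood far from the others, and results are therefore given with and without it. The summed level of the 10 genes was 7.20 to 12.4 CPM in young kidneys (mean 9.53 ± 2.23, SD, n = 6) and 13.2 to 37.8 CPM in old kidneys (mean 25.8 ± 9.08, n = 8). It was 13.5 to 32.7 CPM in 7 nicotinamide-fed kidneys (mean 21.2 ± 6.86, n = 7) and 194 CPM in nicotinamide replicate 7. Every old and nicotinamide-fed kidney thus lay above every young kidney, while the ranges of old kidneys and of these 7 nicotinamide-fed ones overlapped. Among single tested genes, 2.64% separated old from young kidneys and 2.19% nicotinamide-fed from young ones, in either direction. The sums of macrophage and dendritic cell genes and of genes shared by most leukocytes separated from young kidneys as well. Those of interferon gamma response genes and of B and plasma cell genes did not separate in both comparisons. The gap to young kidneys was small, from 12.4 CPM in young replicate 6 (39 reads) to 13.2 CPM in old replicate 4 (97 reads). Nicotinamide replicate 7 had 8.35 times the median of its own group's other 7 kidneys.

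**Figure D1:**
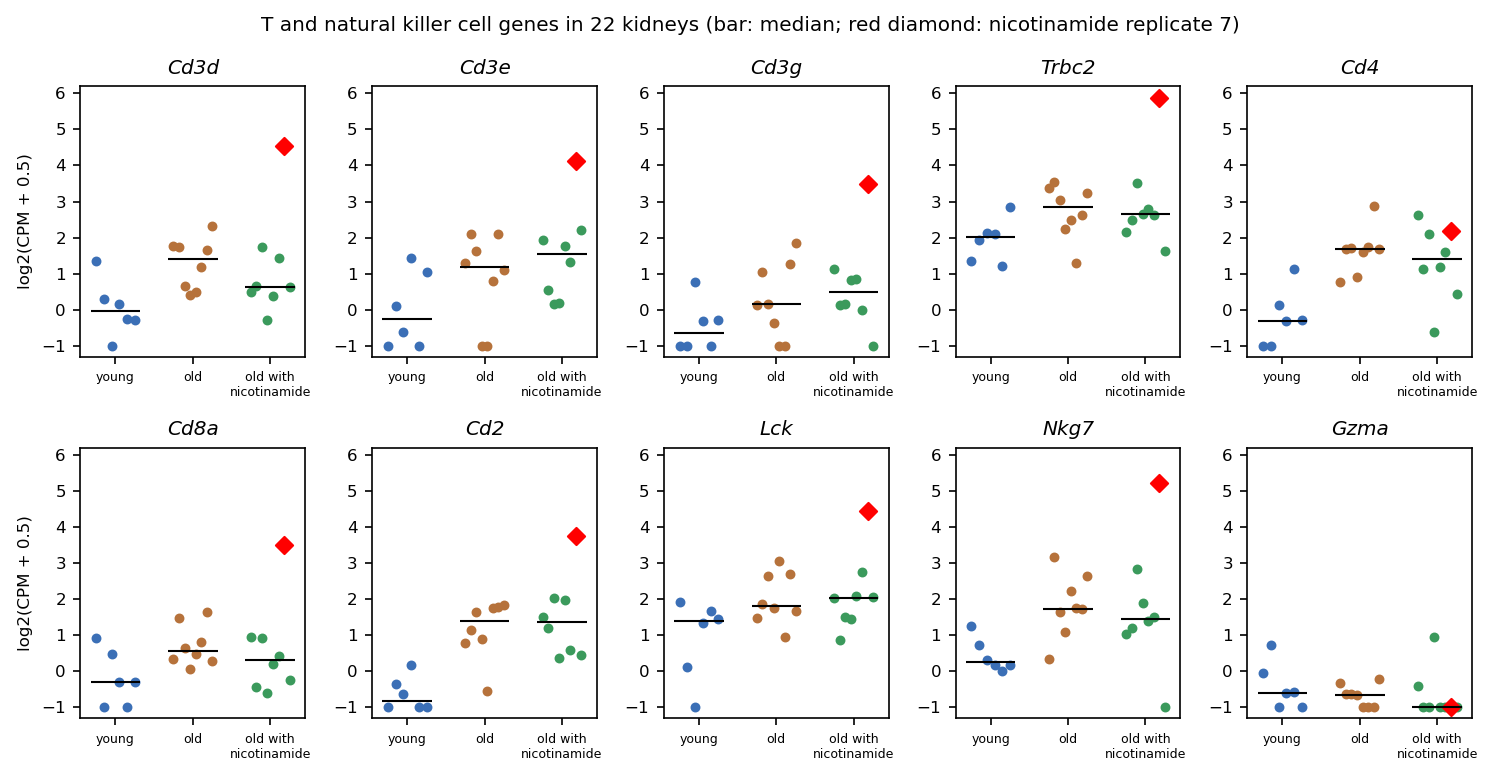
Level of each gene, as log2(CPM + 0.5), in the 6 young, 8 old and 8 nicotinamide-fed kidneys; each point is 1 kidney, bars are medians and the red diamond is nicotinamide replicate 7. The diamond is the highest of 22 points for 8 of the 10 genes, all but Cd4 and Gzma.

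Cd2 and Cd4 were higher in old than in young kidneys, and the other 5 tested genes had positive fold changes that did not pass. In edgeR's quasi-likelihood test with Benjamini-Hochberg adjustment, 2 of 7 tested members passed, both higher, against 7.04% of all tested genes in either direction and 3.9% higher. The median log2 fold change of the 7 was 1.63, beside 0.01 over all tested genes. Cd2 had at most 4 reads in a young kidney, so it met the minimum count of 10 only through old and nicotinamide-fed kidneys. The same holds for Cd4, apart from 10 reads in young replicate 5. When every gene with a count was fitted, 2 of 10 members passed, against 4.63% of 26145 genes. In that fit 9 of 10 log2 fold changes were above 0, all but that of Gzma, and their median was 1.51, beside 0.03 over all genes. Without nicotinamide replicate 7, which is in neither group but shares in the estimate of spread and in the choice of tested genes (14603 without it), 3 of 7 passed, against 7.57% of all tested genes. No member had old and young kidneys that were fully separated, while 2.64% of tested genes showed such a separation in either direction.

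Among the receptor complex genes, Trbc2, which encodes a constant region of the receptor's beta chain, had a lowest, median and highest level of 1.84, 3.54 and 6.67 CPM in young kidneys and 1.97, 6.71 and 11.2 CPM in old kidneys. The groups overlapped, with 4 of 8 old kidneys above the highest young one. Its log2 fold change of 0.98 ± 0.66 (SE) did not pass (edgeR adjusted p = 0.438). Trbc1 encodes a near-identical constant region, and how well the 3′ reads split between both beta chain genes was not tested. Cd3d, whose protein pairs with CD3 epsilon, had 0, 0.480 and 2.05 CPM in young and 0.819, 2.21 and 4.53 CPM in old kidneys. All 8 old kidneys lay above the young median, and 4 above the highest young kidney, young replicate 1. The log2 fold change was 1.63 ± 0.86 (edgeR adjusted p = 0.290). Cd3e, the partner shared by both CD3 pairs, had 0, 0.364 and 2.19 CPM in young and 0, 1.80 and 3.82 CPM in old kidneys. It was at 0 in 2 kidneys of either group. Its old counts had a mean of 12.4 and an SD of 10.5, beyond the 3.52 that counting error alone gives, and its log2 fold change of 1.40 ± 0.96 did not pass (edgeR adjusted p = 0.449). Cd3g, which was below the count minimum, had 0, 0.156 and 1.20 CPM in young and 0, 0.612 and 3.08 CPM in old kidneys. When every gene with a count was fitted, its log2 fold change was 1.65 ± 0.80 (edgeR adjusted p = 0.222), in a fit that called 4.63% of 26145 genes.

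Of the co-receptor genes Cd4 rose with age and Cd8a had too few reads for the main test. Cd4 (ENSMUSG00000023274) had 0, 0.315 and 1.68 CPM in young and 1.22, 2.70 and 6.89 CPM in old kidneys. All but 2 of the 8 old kidneys exceeded the highest young one, young replicate 5, and the highest old kidney was old replicate 7. Cd4 rose with age by 2.53 ± 0.67 on the log2 scale, or 5.76-fold (edgeR adjusted p = 0.0158). Without old replicate 7 the log2 fold change was 2.20 and no longer passed (edgeR adjusted p = 0.0508), and limma-voom did not call it either. The young mean rests on 17 reads in all. Cd8a, one chain of the CD8 co-receptor, had 0, 0.315 and 1.42 CPM in young and 0.546, 0.993 and 2.64 CPM in old kidneys, with 2 of 8 old kidneys above the highest young one. Fitted without the count minimum, it had a log2 fold change of 1.32 ± 0.73 (edgeR adjusted p = 0.294).

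Cd2 (ENSMUSG00000027863), an adhesion molecule of T and natural killer cells that binds CD48 in the mouse, had the lowest adjusted p of the members. It was at 0 in 3 of 6 young kidneys and had a median of 0.0749 and a maximum of 0.625 CPM there, 7 reads in all. In old kidneys it had 0.182, 2.16 and 3.08 CPM, and 7 of 8 exceeded every young kidney; the exception was old replicate 5, with 1 read. Cd2 rose with age by 3.24 ± 0.78 on the log2 scale, or 9.46-fold (edgeR adjusted p = 0.00709), a call that limma-voom did not make (adjusted p = 0.0598). Lck, the kinase bound to both co-receptors, had 0, 2.13 and 3.30 CPM in young and 1.43, 2.99 and 7.82 CPM in old kidneys. Within the young range lay 5 of 8 old kidneys, and the log2 fold change of 1.16 ± 0.63 did not pass (edgeR adjusted p = 0.306).

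Of the genes of cytotoxic cells, Nkg7, a protein of cytotoxic granules, had 0.503, 0.692 and 1.89 CPM in young and 0.761, 2.82 and 8.50 CPM in old kidneys. Above the highest young kidney lay 6 of 8 old ones. Its log2 fold change of 1.92 ± 0.93 did not pass with all libraries (edgeR adjusted p = 0.245). Without nicotinamide replicate 7 it was 1.93 ± 0.58 and passed (edgeR adjusted p = 0.0309). Gzma, a granzyme of natural killer cells and some T cells, gave 13 reads in the 6 young kidneys together and 7 reads in the 8 old ones. Its highest level was 1.16 CPM in young and 0.362 CPM in old kidneys, and no old kidney exceeded the young range. The log2 fold change without the count minimum was −1.17 ± 1.37 (edgeR adjusted p = 0.702), so a difference was not detectable at this depth.

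**Figure D2:**
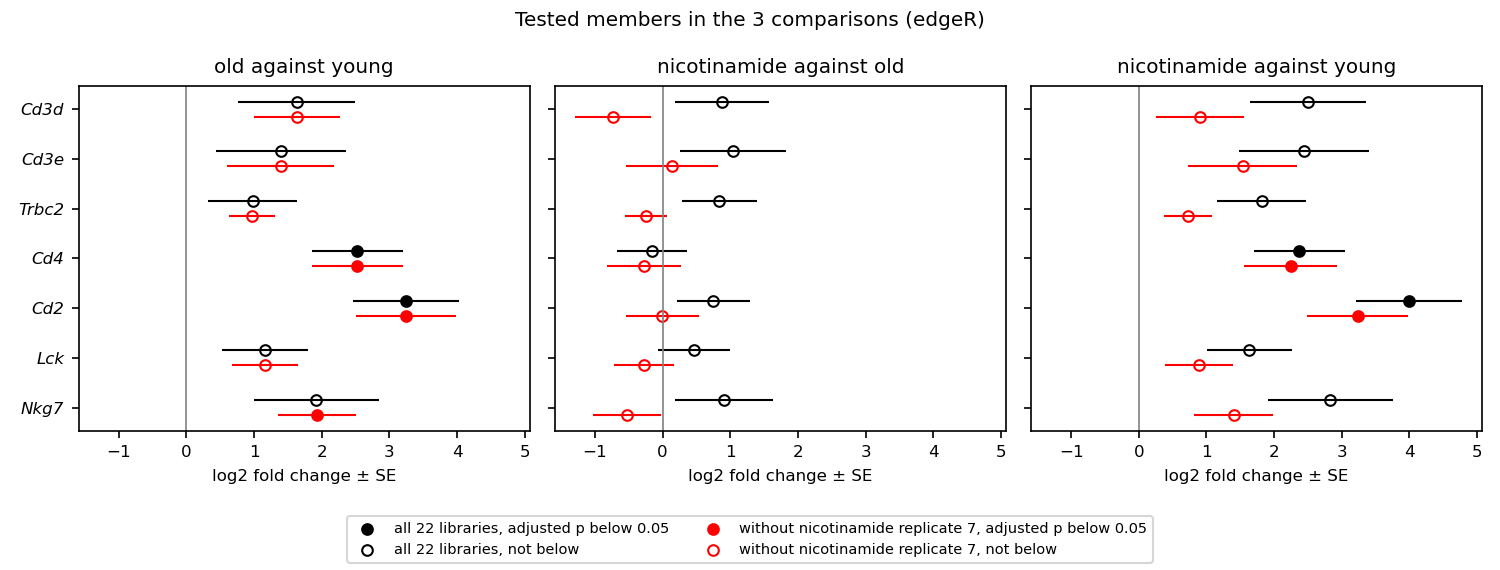
Log2 fold change with its SE for the 7 tested members in the 3 comparisons, with all 22 libraries and without nicotinamide replicate 7; filled points have an adjusted p below 0.05. Cd2 and Cd4 are filled in both comparisons with young kidneys, Nkg7 is filled for old against young without that library, and none is filled between nicotinamide-fed and old kidneys.

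No member passed between nicotinamide-fed and old kidneys of the same age. In edgeR 0 of 7 tested members had an adjusted p below 0.05, against 0.0272% of all tested genes. An unadjusted p below 0.05 was seen in 0 of the 7, against 907 of all 14683 tested genes. DESeq2 called 0 of the 3 members to which it gave an adjusted p, against 0.0845% of its genes. With all libraries 6 of 7 log2 fold changes were above 0 and their median was 0.83, beside 0.01 over all genes. Without nicotinamide replicate 7 1 of 7 (Cd3e) was above 0, the median was −0.27, and 0 passed, against 0.0137% of all tested genes. In the fit without the count minimum 0 of 10 passed, against 0.0268% of genes.

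The size of most of these values depended on that 1 kidney, as did the sign for several genes, though not for Cd3e and Cd4. Cd3d had 0.320, 1.06 and 22.9 CPM in nicotinamide-fed kidneys, and its log2 fold change against old kidneys was 0.88 (95% interval −0.48 to 2.24) with nicotinamide replicate 7 and −0.73 without. Cd3e had 0.628, 2.48 and 16.8 CPM and a fold change of 1.04 (−0.48 to 2.57) with and 0.14 without that kidney. Trbc2 had 2.60, 5.75 and 57.4 CPM and a fold change of 0.83 (−0.25 to 1.92) with and −0.25 without. In each of these receptor genes the highest kidney was nicotinamide replicate 7, and the median of the group lay within the range of the old kidneys. Cd3g had 0, 0.955 and 10.6 CPM, the highest again in nicotinamide replicate 7, with 1.03 as its fold change without the count minimum (edgeR adjusted p = 0.564) and −0.21 when that kidney was left out of the same fit.

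Cd4 did not follow the receptor genes in nicotinamide replicate 7. It had 0.160, 2.16 and 5.68 CPM in nicotinamide-fed kidneys, with the highest value in nicotinamide replicate 1 and 4.04 CPM in nicotinamide replicate 7. Its log2 fold change against old kidneys was −0.16 (95% interval −1.18 to 0.86), and −0.28 without nicotinamide replicate 7. Cd8a had 0.160, 0.748 and 10.8 CPM, and 0.62 as its fold change without the count minimum (edgeR adjusted p = 0.755), or −0.79 when that kidney was left out of the same fit. Cd2 had 0.801, 2.07 and 13.0 CPM and a fold change of 0.75 (−0.31 to 1.81), which was −0.0058 without that kidney. Lck had 1.33, 3.62 and 21.1 CPM and a fold change of 0.47 (−0.57 to 1.51), which was −0.27 without it. Nkg7 had 0, 2.24 and 37.0 CPM and a fold change of 0.91 (−0.52 to 2.33), which was −0.53 without it. For Cd8a, Cd2, Lck and Nkg7 the highest of the 22 kidneys was nicotinamide replicate 7. Gzma was at 0 in 6 of 8 nicotinamide-fed kidneys, nicotinamide replicate 7 among them, and at most 1.44 CPM, in nicotinamide replicate 4.

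Against young kidneys, nicotinamide-fed kidneys had more Cd2 and Cd4, a comparison that shares its libraries with both others. In edgeR 2 of 7 tested members passed, both higher, against 8.7% of all tested genes in either direction and 4.73% higher. Cd2 rose by 3.99 ± 0.78 on the log2 scale (edgeR adjusted p = 0.000755), and all 8 nicotinamide-fed kidneys lay above all 6 young ones. A full separation in either direction was seen in 2.19% of tested genes. The log2 fold change of Cd2 was 3.24 without nicotinamide replicate 7 and passed (edgeR adjusted p = 0.00472), in a fit that called 2 members and 7.46% of all tested genes. Cd4 rose by 2.37 ± 0.67 (edgeR adjusted p = 0.0200), and passed without nicotinamide replicate 7 as well (2.25, edgeR adjusted p = 0.0350). It did not pass without young replicate 1, 2 or 4 or without nicotinamide replicate 1. The remaining log2 fold changes ran from 1.63 for Lck to 2.83 for Nkg7 with adjusted p from 0.0633 to 0.123. They ran from 0.73 for Trbc2 to 1.54 for Cd3e without nicotinamide replicate 7. When every gene with a count was fitted, 4 of 10 members passed, against 5.85% of genes: Cd2, Cd4, Lck (edgeR adjusted p = 0.04997) and Cd3g, with a log2 fold change of 2.68 ± 0.80 (edgeR adjusted p = 0.0229). For Cd8a it was 1.94 ± 0.73 (edgeR adjusted p = 0.0917). With nicotinamide replicate 7 left out of that fit, neither Cd3g (1.44 ± 0.95, edgeR adjusted p = 0.408) nor Lck (0.89 ± 0.45, edgeR adjusted p = 0.249) passed, and Cd8a had 0.54 ± 0.87.

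A wider set of 85 other genes of T and natural killer cells was read beside the members, 36 of which were tested. Between old and young kidneys 3 of 36 rose and 0 fell, or 8.33%, near the 7.04% of all tested genes that were called (3.9% higher), with a median log2 fold change of 1.15. The adaptor Lcp2, which links the receptor to calcium signalling, rose by 1.80 ± 0.54 on the log2 scale (edgeR adjusted p = 0.0309). Ccr7, the chemokine receptor that guides naive and central memory T cells to lymphoid tissue, rose by 3.70 ± 0.99 (edgeR adjusted p = 0.0164), from 4 reads in all young kidneys. Serpinb9, an inhibitor of granzyme B that other cells make too, rose by 0.51 ± 0.17 (edgeR adjusted p = 0.0485). With nicotinamide replicate 7 left out, 9 of 33 rose, against 7.57% of all tested genes called in that fit: these 3 and Thy1, Ptpn22, Il7r, Tox, Ccl5 and Ctsw. Without young replicate 2 or without old replicate 2, 1 passed. The Lcp2 call was lost in 9 of 34 alternative settings and that of Serpinb9 in 18 of 34.

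Between nicotinamide-fed and old kidneys 0 of the 36 passed in edgeR, and 2 had an unadjusted p below 0.05, beside 907 of all 14683 tested genes. The median log2 fold change was 0.38, or −0.23 over 33 genes without nicotinamide replicate 7. Between nicotinamide-fed and young kidneys 10 of 36 rose and 0 fell, beside 8.7% of all tested genes called (4.73% higher). Of the receptor and signalling genes these were the surface protein Thy1 (2.61 ± 0.64 on the log2 scale, edgeR adjusted p = 0.0136), the phosphatase Ptpn22 (1.58 ± 0.43, 0.0196), Lcp2 (1.85 ± 0.53, 0.0224) and the costimulatory receptor Cd27 (2.52 ± 0.74, 0.0242). Of the state and homing genes they included the chemokine receptor Ccr7 (3.04 ± 1.004), the interleukin 7 receptor chain Il7r (3.15 ± 0.91, or 1.54 without nicotinamide replicate 7) and the transcription factor Gata3 (0.52 ± 0.16), which kidney collecting duct cells express as well. Of the cytotoxic genes they were the protease Ctsw (2.93 ± 0.89) and the chemokine Ccl5 (3.05 ± 0.94), whose log2 fold changes were 1.34 and 1.09 without nicotinamide replicate 7 and did not pass. The Ccr7 call was lost in 22 of 32 alternative settings. Without that kidney 5 of 33 rose, against 7.46% of all tested genes called in that fit, among them Thy1, Ptpn22, Gata3 and Il7r. Without young replicate 2 or young replicate 4, 3 of the wider set passed, and without young replicate 1 or 3, 5 passed.

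Genes of other leukocytes also rose with age, in counts to be read beside the 7.04% of all tested genes that were called and the 3.9% that were called higher. Between old and young kidneys 13 of 22 tested macrophage and dendritic cell genes rose, among them Fcer1g (1.31 ± 0.18 on the log2 scale) and the fractalkine receptor Cx3cr1 (1.59 ± 0.23), and the summed level of the list was 180 to 222 CPM in young and 326 to 585 CPM in old kidneys. Of 15 tested B and plasma cell genes 5 rose, among them the antibody light chain gene Igkc (1.71 ± 0.42). Of 15 genes shared by most leukocytes 9 rose, among them Laptm5 (1.37 ± 0.16) and Cd52 (1.29 ± 0.22). Of 7 genes that recruit T cells 3 rose: Vcam1 (1.57 ± 0.20), Icam1 (0.96 ± 0.19) and Cxcl16 (0.40 ± 0.12). Of 17 tested interferon gamma response genes 2 rose, Gbp5 and Psmb9, and 8 rose without nicotinamide replicate 7, in a fit that called 7.57% of all tested genes. Of 11 tested proliferation genes 0 passed, as did 0 of 5 fat cell and 0 of 5 urothelial genes. Of 12 kidney epithelial genes 1 rose, and of 5 tested genes of lymphoid aggregates 1 rose, Ccr7, which stands in the T cell list as well. None of 6 genes of gamma-delta T cells had enough reads to be tested. Between nicotinamide-fed and old kidneys 0 genes of these lists passed. B and plasma cell genes then had 0 of 15 log2 fold changes above 0 (median −0.90). Of these 15 genes 5 had an unadjusted p below 0.05 in edgeR, beside 907 of all 14683 tested genes. Without nicotinamide replicate 7 their median was −0.80 over 14 genes. With all libraries, 5 tested fat cell genes had a median of 2.44. The fat cell list summed to 394, 199 and 87.5 CPM in nicotinamide replicates 1, 2 and 6. It summed to at most 16.8 CPM in the others of that group, and to 78.6 CPM in old replicate 7. The part of any of these cells in the members' values was not tested.

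**Figure D3:**
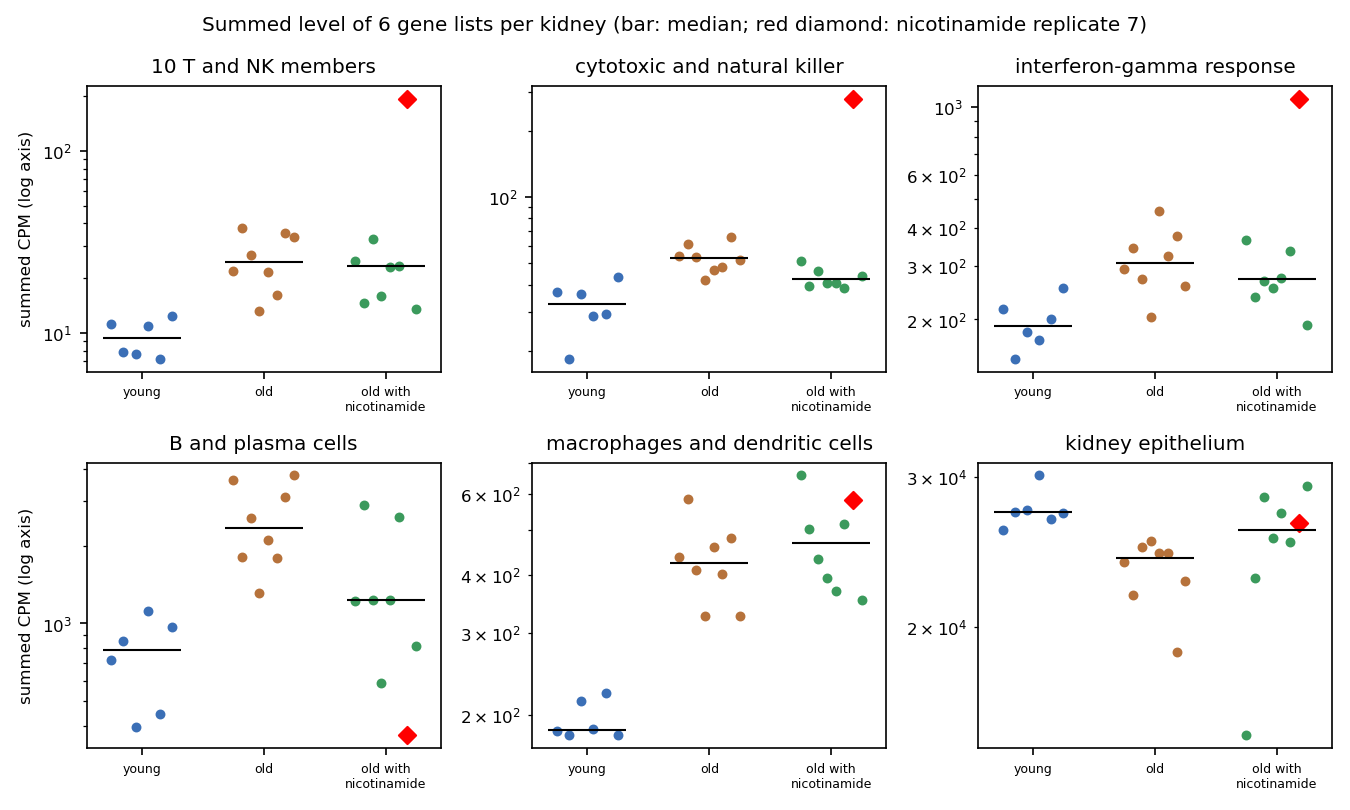
Summed CPM of the 10 members and of 5 other gene lists in each kidney, on a log axis; bars are medians and the red diamond is nicotinamide replicate 7. The diamond lies at 194 CPM for the members, above all others, and lowest of 22 for B and plasma cells.

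Nicotinamide replicate 7 held 383 reads of Trbc2, 247 of Nkg7, 153 of Cd3d, 141 of Lck, 112 of Cd3e, 87 of Cd2, 72 of Cd8a and 71 of Cd3g, so that these 8 values do not rest on a few reads. Of 26 other receptor and signalling genes 20 were highest of the 22 kidneys there, among them the CD8 beta chain Cd8b1 with 25.3 CPM, against at most 3.88 CPM in any other kidney, and the costimulatory receptor Cd28 with 16.3 CPM. Of 26 state and homing genes 15 were highest there. They include Il7r (57.8 CPM), the interleukin 2 receptor chain Il2rb (34.3 CPM) and Eomes, a transcription factor of CD8 memory and natural killer cells (6.59 CPM). Of 27 cytotoxic and natural killer genes, 24 of which had a read in any kidney, 12 were highest there. They were led by granzyme B, Gzmb, with 10.8 CPM against at most 1.32 elsewhere. Ctsw had 34.9 CPM, and Ccl5 had 165 CPM against at most 20.1 elsewhere. The share of all tested genes that were highest in this kidney was not computed, so the counts for the members and every list lack that background. The natural killer receptor Ncr1 and the cytokine Ifng were at 0 there, as was Foxp3, the factor of regulatory T cells. A count of 0 in that library allows up to 0.449 CPM. Levels of these 3 genes in the other kidneys are not given here, so their 0 values do not show that such cells were absent. The receptor gene Klrk1 was highest there, with 7.94 CPM against at most 2.40 CPM elsewhere.

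Genes of the interferon gamma response were high in the same kidney. Of 19 such genes 16 were highest of 22 there, and the list summed to 1065 CPM against at most 457 CPM in any other kidney. Examples are the immunity-related GTPase Iigp1 with 247 CPM, against at most 73.1 elsewhere, Gbp2 with 50.6 CPM, and the checkpoint ligand Cd274 with 31.4 CPM. B and plasma cell genes were not high there: 0 of 23 had their maximum in nicotinamide replicate 7, and the list's sum of 367 CPM was the lowest of 22, the others running from 397 to 3762 CPM. Of 23 macrophage and dendritic cell genes 2 were highest there, one of them the monocyte gene Ly6c2, which CD8 memory T cells also express, with 89.4 CPM against at most 9.74 elsewhere. Of 6 genes of immature thymocytes only 3 had a read in any kidney. None of the 6 was highest there, with Rag1, Rag2, Dntt and Ptcra at 0. That list summed to at most 3.08 CPM in any kidney, so a 0 there does not set this kidney apart. Kidney epithelial genes summed to 26520 CPM, within the 14898 to 30160 CPM of the other kidneys. Genes shared by most leukocytes summed to 433 CPM, against at most 242 CPM elsewhere, and urothelial genes to 3.29 CPM, rank 21 of 22 and 0.0967 times the median of the group's other 7 kidneys. The part of any of these cells in the high values was not tested.

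The balance of the co-receptors differed in that kidney from the pooled reads of its group. Its reads of Cd8a and Cd8b1 numbered 241 against 27 of Cd4, so that 89.9% of the co-receptor reads were of CD8 (exact 95% interval 85.7 to 93.3%, counting error only). The other 7 nicotinamide-fed kidneys together held 75 CD8 and 114 Cd4 reads (39.7% CD8). Old kidneys together held 122 and 147 (45.4%), and young kidneys 31 and 17 (64.6%). In the other kidneys the share was at most 65.2% in old and 66.7% in nicotinamide-fed ones, the latter from 3 reads. Young kidneys had at most 15 such reads each, and in young replicate 1 all 9 were of CD8 (exact 95% interval 66.4 to 100%).

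**Figure D4:**
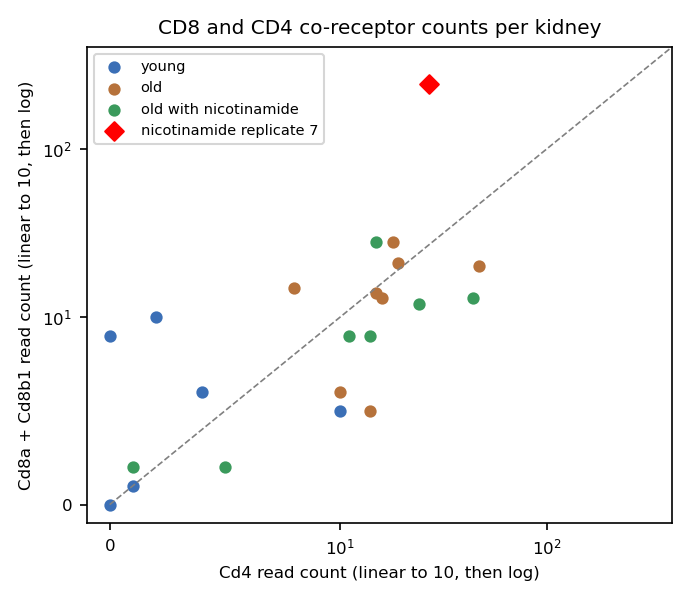
Reads of Cd8a and Cd8b1 together against reads of Cd4 in each kidney, on axes that are linear to 10 and logarithmic beyond; the dashed line marks equal counts. Nicotinamide replicate 7, the red diamond at 241 against 27, lies far above the line.

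The members' mean level followed genes of several kinds across kidneys. Over the 22 libraries, the tested genes with the highest Spearman correlation of log2(CPM + 0.5) with the members' mean were the complement inhibitor Serping1 (rho = 0.876), the leukocyte surface protein Cd52 (0.862), the membrane chemokine Cx3cl1 (0.857), the filament protein Vim (0.854), the matrix proteoglycan Bgn (0.850) and the lymphocyte factor Pou2f2 (0.850). Laptm5, Ehd2, Ahnak and Junb completed the first 10, at 0.843 to 0.832. Without nicotinamide replicate 7, 5 of these 10 were again among the first 10 of 14676 genes compared. The libraries share the difference in age, and no test is given for these values.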

How the data were processed

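Polyadenylated RNA of 22 mouse kidneys was sequenced with a QuantSeq 3′ FWD kit, per the labels' protocols. The authors deposited 1 table of raw read counts per mouse Ensembl gene, made with STAR and HTSeq per the submitters' processing notes. Not given in the sources used here are tool versions, strand setting and duplicate handling. GRCh38, a human build, is named in the notes although the identifiers are of mouse, so no coordinates of the count table are used. Of 55487 gene entries 55141 had a symbol. The 5 summary entries were left out; reads in no gene were 19.1 to 24.7% of all entries.

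Genes were filtered with filterByExpr (minimum count 10, minimum total 15, smallest group 6); 14683 genes, holding 99.75% of counts, passed. One quasi-likelihood fit over 22 libraries (edgeR 4.0.16, R 4.3.3, TMM factors, robust dispersions, no covariates) gave the 3 contrasts, two-sided. Benjamini-Hochberg adjustment ran over all tested genes, with 0.05 as threshold, and SE was derived as the absolute log2 fold change divided by the root of F. Alternatives were DESeq2 1.42.0, limma-voom (limma 3.58.1), other filters and scalings, a replicate block and libraries left out. Scripts were tested on simulated data. The 71 pairs of libraries within groups all differed beyond sampling noise (5.50 to 39.3 for chi-square over its degrees of freedom), so none was counted as a copy. Intervals of fold changes are 1.96 SE to either side, a normal approximation, and include the spread between animals. They are somewhat narrower than the test implies. For Nkg7 between old and young kidneys the interval would be 0.11 to 3.74, with an unadjusted p of 0.0514 in edgeR. Intervals of read shares and limits for counts of 0 cover counting error only.

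The members and the 16 gene lists were chosen with earlier results of these data known. Named genes are all members, up to 8 called genes of each T and natural killer list and up to 3 of each other list by lowest p. Also named are up to 4 genes of a list with the highest ratio, in the library that stands apart, of its CPM to the group median plus 0.1, and the 10 genes most correlated with the members. Ncr1, Ifng, Foxp3, Klrk1, Ly6c2 and the thymocyte genes at 0 were named after their values were seen. So were the genes that passed only without a library. Promoter windows are RefSeq's (GRCm38.p6). A few genes that this rule names are not reported here.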

Additional observations from a re-analysis of the deposited data

Results flagged for a closer look

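Among 33 groups of libraries examined (10 genes and their sum, in 3 groups of kidneys), 14 had a highest kidney whose gap to the next exceeded Dixon's 95% critical value. For independent, normally distributed values chance gives such a gap in about 1 in 20 groups; these low counts are not such values, the sum holds the 10 genes, and no rate was computed for them. Nicotinamide replicate 7 accounts for 9 of the 14: Cd3d at 22.9 CPM, Cd3e at 16.8, Cd3g at 10.6, Trbc2 at 57.4, Cd8a at 10.8, Cd2 at 13.0, Lck at 21.1, Nkg7 at 37.0 and the sum of the members at 194 CPM. In young kidneys, Cd3d stood apart in replicate 1 (2.05 CPM), Cd3g in replicate 3 (1.20 CPM) and Cd4 in replicate 5 (1.68 CPM), each a value of few reads. In old kidneys Cd4 stood apart in replicate 7 at 6.89 CPM. Gzma stood apart in nicotinamide replicate 4 at 1.44 CPM, in a group where 6 of 8 kidneys had no read of it.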

How the results depend on the processing

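Replicate numbers are shared by the groups, but deviations from the group means in the 20 same-numbered pairs correlated at −0.082 to 0.0587 and 0 lay above 0.1, so they were taken to share only a number. With the number as a replicate block, 1 other T and natural killer cell gene passed between old and young kidneys (3 without the block) and 4 between nicotinamide-fed and young (10 without the block), and the fold changes between nicotinamide-fed and old kidneys of Cd3d and Nkg7 were −0.068 and −0.057.

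Of the 2 members called between old and young kidneys, limma-voom kept 0, no filter without nicotinamide replicate 7, an alternative chosen after seeing the data, gave 4, and leaving out 1 library gave 1 to 3. The 3 other T and natural killer cell genes became 6 with no low-count filter, 10 in DESeq2, 8 with only the 2 groups fitted, 10 with no filter and without nicotinamide replicate 7, 9 without young replicate 6, old replicate 7 and nicotinamide replicates 1 and 7 together (the 4 libraries that stood apart in earlier results), and 1 to 9 with 1 library left out. Over all genes, 1034 calls became 668 to 1305 with 1 library left out. Between nicotinamide-fed and old kidneys the 4 calls over all genes became 7 with no filter, 11 when nicotinamide replicate 7 was left out as well, 10 in DESeq2, 7 in limma-voom with quality weights, 2 without robust dispersions and 1 to 9 with 1 library left out. Between nicotinamide-fed and young kidneys the 2 called members became 4 with no filter, 5 in DESeq2 and without robust dispersions, 1 in limma-voom with or without quality weights, with only the 2 groups fitted and without the 4 libraries, and 1 to 3 with 1 library left out. The 10 other T and natural killer cell genes became 16 with no filter (14 higher and 2 lower), 2 in limma-voom, 3 with quality weights, 4 with only the 2 groups, 5 without the 4 libraries and 3 to 11 with 1 library left out; the 1277 calls over all genes became 801 without the 4 libraries and 835 to 1438 with 1 left out. The young mean of the summed level was 5.94 CPM without Trbc2.

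Fold changes between nicotinamide-fed and old kidneys that turned sign, none of which passed, were in limma-voom those of Cd3d (−0.20) and Nkg7 (−0.25), with quality weights those of Cd3d (−0.28), Lck (−0.049) and Nkg7 (−0.18), with no filter and without nicotinamide replicate 7 those of Cd3d (−0.72), Trbc2 (−0.24), Lck (−0.27) and Nkg7 (−0.52), and without the 4 libraries those of Cd3d (−0.61), Trbc2 (−0.21), Lck (−0.19) and Nkg7 (−0.48). With 1 library left out, their lowest and highest values were −0.73 and 1.11 for Cd3d, −0.25 and 0.99 for Trbc2, −0.43 and 0.16 for Cd4, −0.0058 and 0.90 for Cd2, −0.27 and 0.68 for Lck and −0.53 and 1.22 for Nkg7. Cd4 had 0.16 without old replicate 7 and 0.02 without nicotinamide replicate 4; the other sign changes came without nicotinamide replicate 7. The cause of these shifts was not tested. Few reads per member limit all of these values.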

Other observations

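The following genes were chosen after their values were seen. Outside the gene lists, nicotinamide replicate 7 stood highest in further genes, some of them lymphocyte genes. Ms4a4b, a membrane protein of T cells, had 91.1 CPM there (608 reads) and at most 10.1 CPM in any other kidney. Gzmm, the granzyme M gene, had 10.8 CPM there and at most 1.27 elsewhere, with a median of 0 over the other 21 kidneys. Apol11b and Slfn1 had 13.2 and 24.9 CPM there and at most 2.58 and 4.91 elsewhere.

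Traj18, the joining segment used by the invariant receptor of natural killer T cells, was read 0 to 2 times in each young kidney, 0 to 13 times in each old one and 4 to 24 times in each nicotinamide-fed one, with 17 in nicotinamide replicate 7, which was not the highest. Its log2 fold change was 2.35 ± 0.83 between old and young kidneys (edgeR adjusted p = 0.0792; 0.0396 in DESeq2), 0.996 ± 0.59 between nicotinamide-fed and old (edgeR adjusted p = 0.846) and 3.34 ± 0.82 between nicotinamide-fed and young (edgeR adjusted p = 0.00650). Its median was 1 read in young, 6.5 in old and 12.5 in nicotinamide-fed kidneys. For all 60 joining segments of the alpha chain together it was 4, 9 and 18.5 reads. Variable segments of the alpha chain had a median of 0 reads in every group, with 6 in nicotinamide replicate 7 and 0 in each of the old and young kidneys. Whether the Traj18 reads come from rearranged receptor transcripts, or from natural killer T cells, was not tested.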
